A study of Mus musculus with 7 samples.

Results

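The comparison described here set mouse embryonic fibroblasts that lack p53 and Mdm2 (p53Mdm2 KO, 2 libraries) against fibroblasts that lack p53 alone (p53 KO, 3 libraries), 5 of the 7 RNA-seq libraries in the series. The libraries were chosen by the genotype in their titles, and the genes described are those whose libraries separated the groups, with every p53Mdm2 KO library on one side of every p53 KO library. All cells were p53-null fibroblasts of the C57BL/6 strain grown in DMEM with 10% fetal calf serum, so loss of p53 was shared by every group. The remaining 2 libraries came from p53-null fibroblasts with a knock-in of Mdm2 C462A (p53KO Mdm2(C462A) KI). Their values are set beside those of the p53Mdm2 KO libraries below, and since each genotype is read against the p53 KO libraries, no likeness between them was computed. The alleles, the embryos and any pooling are not described in the sources used here, so the p-values measure the spread between these libraries, which may in part be technical.

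Mdm2 is a RING-type ubiquitin ligase best known for marking p53 for degradation and for masking its activation domain. Loss of Mdm2 is lethal to mouse embryos unless p53 is also removed, so fibroblasts without Mdm2 can be kept in culture only on a p53-null background. Such cells have been used to look for functions of Mdm2 that do not pass through p53, including at chromatin with Polycomb proteins.

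Recovered depth ran from 28468283 reads (p53Mdm2 KO replicate 2) to 41453822 (p53 KO replicate 2), and 3 reads, the limit that a count of 0 allows, were worth 2.65 to 3.86 normalized reads, counting error only. Levels are normalized reads, which are not divided by gene length, and are listed in the order of the replicate numbers. Fibroblast markers were read in every library, with summed normalized reads of 1133090 to 2248510 in p53 KO and 1514610 and 960682 in p53Mdm2 KO. In the p53 KO libraries Thy1, a fibroblast surface protein, stood at 99.1, 30211 and 30830.4 normalized reads. Col1a2, a chain of type I collagen, was at 3456, 369580 and 547553, so that p53 KO replicate 1 stood apart at both genes. The fibroblast markers went both ways in that library. Fn1, Lum and Prrx1 were also lowest there among the p53 KO libraries, while Postn, Vim and S100a4 were highest. S100a4 stood at 37554, 9779 and 10769 in the p53 KO libraries. Y-linked genes summed to 8.18, 4488 and 38.8 normalized reads in the p53 KO libraries and 4135 and 54.1 in the p53Mdm2 KO libraries. Xist, an X-linked gene, was at 2517, 60.3 and 42379 in p53 KO and 2492 and 55502 in p53Mdm2 KO. Each group thus held 1 library with high Y-linked expression, and libraries of the same genotype differed in sex-linked reads. In p53Mdm2 KO replicate 1 high Y-linked reads came with Xist reads. Summed reads of macrophage and leukocyte markers were 547 to 3524 in p53 KO and 1775 and 485 in p53Mdm2 KO. Endothelial markers summed to 226 to 795 in p53 KO and 1161 and 1262 in p53Mdm2 KO. Cd3e and Cldn5 were at 0 in all libraries. Most of the p53Mdm2 KO endothelial sums was Kdr, at 693 and 994 normalized reads, beside 22.7, 443 and 395 in p53 KO. Prolactin-family and trophoblast markers summed to 45.4 to 134 in p53 KO and 233 and 740.3 in p53Mdm2 KO, with Cdx2 and Tpbpa at 0 in all libraries. Mesothelial markers summed to 2487 to 12937 in p53 KO and 18470.1 and 3435 in p53Mdm2 KO. Epithelial markers summed to 470.3 to 1082 in p53 KO and 2512 and 2009.8 in p53Mdm2 KO. Krt19, on both lists, stood at 204, 754 and 216 normalized reads in p53 KO and 1240 and 1911 in p53Mdm2 KO. It was the only 1 of 5 tested epithelial markers to separate (20% higher beside 8.99% of all genes). The median log2 difference of these 5 was −0.68 without p53Mdm2 KO replicate 1 and 1.87 without p53Mdm2 KO replicate 2. Of 7 tested mesothelial markers, Krt19 was also the only 1 to separate (14.3% higher beside 8.99%). The median log2 difference of these 7 was −0.92. It was −3.53 without p53Mdm2 KO replicate 1, with 5 lower (71.4% beside 25.3% of all genes), and 1.92 without p53Mdm2 KO replicate 2. Neuronal and glial markers summed to 4261 to 9404 in p53 KO and 3276 and 3394 in p53Mdm2 KO. Most of the p53 KO sums was Mtap2, at 8905, 2242 and 4367 normalized reads, beside 795 and 1645 in p53Mdm2 KO. Of 7 tested neuronal and glial markers, 2 were separated higher (28.6% beside 8.99% of all genes) and 2 lower (28.6% beside 9.2%). Skeletal muscle markers summed to 1721 to 5011 in p53 KO and 1416 and 3447 in p53Mdm2 KO. The part of any marker list in the results below was not tested. In such bulk samples, fewer cells of a type and less RNA per cell cannot be told apart.

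Levels of the targeted gene overlapped between the genotypes. Normalized reads of Mdm2 were 1746, 1994 and 1914 in p53 KO and 1575 and 2334 in p53Mdm2 KO. The groups overlapped, with a log2 difference of 0.027 (SE 0.24). The labels do not say which part of the gene was removed, and the summed reads of Mdm2 do not check the genotype. Trp53 was read at 687, 1396 and 1244 normalized reads in p53 KO and 1603 and 1775 in p53Mdm2 KO. Trp53, which encodes p53, was higher in the p53Mdm2 KO libraries by 0.66 (SE 0.32), with a gap of 0.20 between the nearest libraries. For Mdm4, the p53 KO values were 668, 394 and 929 normalized reads and the p53Mdm2 KO values 759.9 and 1263. Mdm4, a relative of Mdm2 that also binds p53, overlapped between the groups.

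Across the transcriptome, few genes kept the genotypes clearly apart. No gene of the 16900 tested (0%) passed an adjusted p of 0.05 in limma, and the smallest adjusted p was 0.587. At an unadjusted limma p under 0.05 there were 507 genes (3%), 256 higher in p53Mdm2 KO (1.51%) and 251 lower (1.49%). A threshold of 0.05 would on average pass a larger share than this if no gene differed. The libraries of the groups did not overlap at 3075 genes (18.2%), 1520 of them higher in p53Mdm2 KO (8.99%) and 1555 lower (9.2%). If the library labels were exchangeable, 3 libraries against 2 would separate at a similar share of genes. The counts are therefore not read as an effect of genotype. Most of these separations were narrow: the median gap, the log2 distance between the nearest libraries of the groups, was 0.13 for higher genes and 0.11 for lower genes. A gap of at least 1 was found at 18 higher genes (0.107%) and 19 lower genes (0.112%), and the genes below are named by this gap.

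Read level and direction moved together among the separated genes. Of 4041 genes with a mean under 100 normalized reads, 11.3% were separated higher and 6.68% lower in p53Mdm2 KO. Of 6693 genes with a mean of at least 1000, 7.40% were separated higher and 10.6% lower. The p53 KO library farthest from the p53Mdm2 KO group was replicate 1 at 10 of the 18 higher and 13 of the 19 lower genes with a gap of at least 1. Without that library, 2974 genes (17.6%) were separated higher and 3134 (18.5%) lower, a looser rule since fewer libraries have to separate. With any 1 of the 5 libraries left out, 13.5% to 23.9% of all genes were separated higher and 14.9% to 25.3% lower; a list's share without a library is set beside the share of all genes without it.

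**Figure D1:**
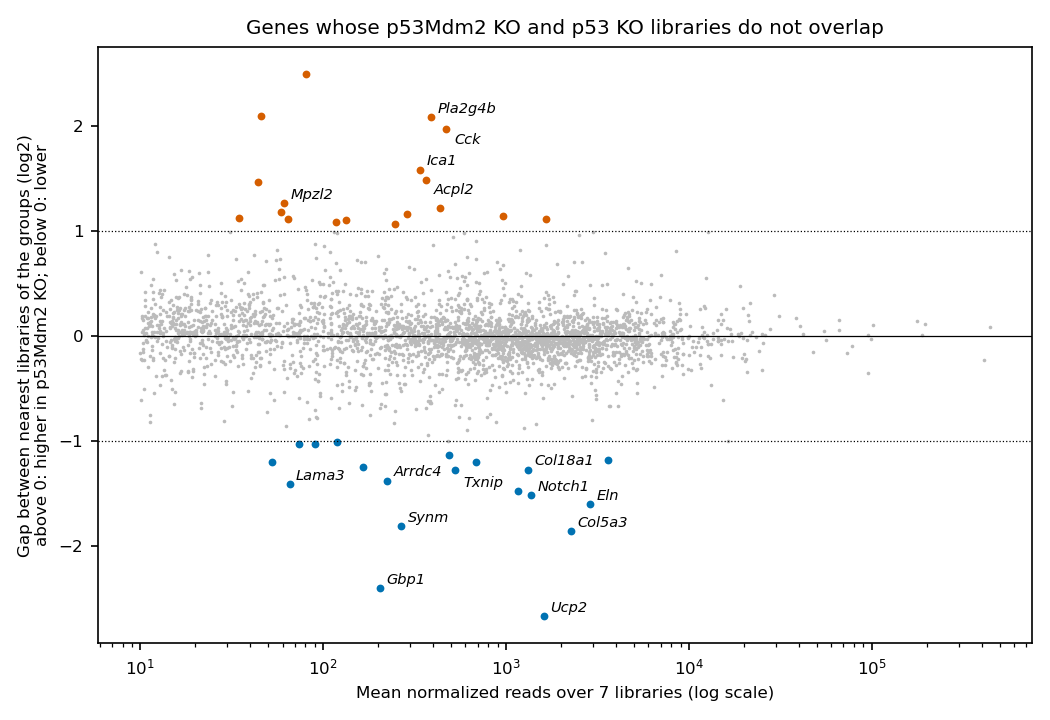
Each point is a gene whose p53Mdm2 KO and p53 KO libraries do not overlap, with the mean normalized reads over 7 libraries on a log x axis and the signed gap (log2) on the y axis; coloured points have a gap of at least 1. The 18 orange points above and 19 blue points below stand apart from a dense band near 0, with Pla2g4b the highest named gene and Ucp2 the lowest.

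The widest gap among named genes higher in p53Mdm2 KO was at Pla2g4b, a cytosolic phospholipase A2 that releases fatty acids from membrane lipids. Pla2g4b had 103, 109 and 111 normalized reads in p53 KO against 535 and 767 in p53Mdm2 KO. The p53 KO libraries lay close together and both p53Mdm2 KO libraries lay well above them, with a log2 difference of 2.38 (SE 0.24) and a limma adjusted p of 0.587. Both C462A libraries, at 580.4 and 530.1, also lay above the p53 KO libraries. Jmjd7 stood at 13.6, 8.35 and 5.39 normalized reads in the p53 KO libraries and at 65.9 and 76.0 in the p53Mdm2 KO libraries. Jmjd7, a JmjC-domain gene, lies beside Pla2g4b and is joined to it in read-through transcripts, so their reads cannot be assigned with certainty; its gap was 1.47. Of 32 tested phospholipase A2 and eicosanoid genes, 2 were separated higher (6.25%) and 3 lower (9.38%), near the share of all genes. The other higher one was Ptgs1, the constitutive cyclooxygenase. Normalized reads of Ptgs1 were 664, 2531 and 2091 in p53 KO and 6360.2 and 3583 in p53Mdm2 KO.

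Cck was read at 0, 221 and 217 normalized reads in p53 KO and 927 and 1281 in p53Mdm2 KO. Cck encodes the peptide hormone cholecystokinin, and p53 KO replicate 1 held no read of it; the log2 difference was 3.73 (SE 1.36), or 2.22 without that library. For Hhip, the p53 KO values were 1.82, 178 and 207 normalized reads and the p53Mdm2 KO values 657 and 509. Hhip, a membrane protein that binds Hedgehog ligands, was nearly unread in the same p53 KO library, and its difference of 2.75 (SE 1.136) was 1.496 without it. Prl2c2 had 4.54, 21.3 and 11.9 normalized reads in p53 KO against 69.6 and 242 in p53Mdm2 KO. Prl2c2 encodes proliferin, a prolactin-family hormone, and belongs to a group of near-identical copies among which reads cannot be assigned with certainty. Prl2c3 and Prl2c5 of that group were also separated higher, each with a gap of 0.73. These copies share reads and count as 1 observation.

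Ica1 stood at 39.1, 149 and 154 normalized reads in the p53 KO libraries and at 503 and 551 in the p53Mdm2 KO libraries. Ica1, a BAR-domain protein of secretory vesicles, differed by 2.20 (SE 0.50). Normalized reads of Clcn6 were 755, 894 and 896 in p53 KO and 1968 and 2149 in p53Mdm2 KO. Clcn6, a chloride and proton exchanger of late endosomes, had close values within each group, a difference of 1.26 (SE 0.16) and a limma adjusted p of 0.587. Slc14a1 was read at 13.6, 222 and 121 normalized reads in p53 KO and 631 and 521 in p53Mdm2 KO. Slc14a1, a urea transporter, had its lowest value in p53 KO replicate 1, and its difference of 2.55 (SE 0.82) was 1.69 without it. For Mpzl2, the p53 KO values were 28.2, 25.1 and 33.4 normalized reads and the p53Mdm2 KO values 108 and 106. Mpzl2, an adhesion protein of the immunoglobulin superfamily, had a gap of 1.27, while the C462A libraries stood at 3.01 and 127. Its difference was 1.43 (SE 0.81), with an unadjusted limma p of 0.127.

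Acpl2 had 155, 153 and 214 normalized reads in p53 KO against 657 and 637 in p53Mdm2 KO. Acpl2, an acid phosphatase-like gene, differed by 1.80 (SE 0.35). Serpinb9b stood at 147, 771 and 704 normalized reads in the p53 KO libraries and at 1729 and 1918 in the p53Mdm2 KO libraries. Serpinb9b, a serine protease inhibitor of a clade with several similar copies, had C462A values of 688 and 753, in the range of the p53 KO libraries. Normalized reads of Spna1 were 45.4, 2.78 and 8.63 in p53 KO and 117 and 436 in p53Mdm2 KO. Spna1, the erythroid alpha-spectrin, differed by 3.05 (SE 0.78) with a wide spread in both groups. Stard6, a lipid-transfer protein, had a gap of 1.12, Fam110c 1.11, and Grik2, a kainate receptor subunit, also 1.12. Tbc1d2 was read at 80.9, 195 and 57.2 normalized reads in p53 KO and 431 and 482 in p53Mdm2 KO. Tbc1d2, a GTPase-activating protein for Rab proteins, lay just inside a gap of 1, at 1.07, and Rbm20, a splicing factor, just outside, at 0.99. Beyond these, 2 unnamed cDNA clones had gaps above 2, the wider at 2.50.

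The largest gap of all belonged to Ucp2, a carrier of the inner mitochondrial membrane known as an uncoupling protein, which was lower in p53Mdm2 KO. For Ucp2, the p53 KO values were 1563, 3521 and 2797 normalized reads and the p53Mdm2 KO values 229 and 33.5. No p53Mdm2 KO library reached a level near the lowest p53 KO library, and the log2 difference was −4.46 (SE 0.68). The C462A libraries stood at 1757 and 1356, of which the first lay within the range of the p53 KO libraries. Among 37 tested mitochondrial carriers, 6 were separated higher (16.2% beside 8.99% of all genes) and 3 lower (8.11% beside 9.2%). The lower count was 14 without p53Mdm2 KO replicate 2 (37.8% beside 23.1%). Slc25a37 had 2544, 2836 and 2118 normalized reads in p53 KO against 3998 and 5075 in p53Mdm2 KO. Slc25a37, the iron importer mitoferrin, was the higher one with the widest gap, at 0.49.

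Txnip and Arrdc4, alpha-arrestins known to limit glucose uptake and to be driven by the glucose-sensing factors of the Mondo family, were both lower in p53Mdm2 KO. Txnip stood at 3598, 1279 and 2504 normalized reads in the p53 KO libraries and at 109 and 447 in the p53Mdm2 KO libraries. Normalized reads of Arrdc4 were 559.9, 261 and 483 in p53 KO and 51.0 and 88.8 in p53Mdm2 KO. At both genes all p53Mdm2 KO libraries lay below all p53 KO libraries, with log2 differences of −3.22 (SE 0.74) at Txnip and −2.32 (SE 0.41) at Arrdc4. Mlxip was read at 2089.6, 2253 and 2029.9 normalized reads in p53 KO and 1272 and 1724 in p53Mdm2 KO. Mlxip, which encodes the Mondo factor MondoA, was lower with a gap of 0.23, and it was the third of 7 tested genes of this list to separate (42.9% lower beside 9.2% of all genes); the other 4 overlapped.

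The promoters of these alpha-arrestins are printed because both genes separated with gaps above 1, and carbohydrate response elements of such genes are often described as lying beside CCAAT boxes. The sequences are from RefSeq on GRCm38.p6, 250 bases before to 50 after the start, 5′ to 3′ on the gene's strand, at chr3:96557707-96558006 for Txnip and chr7:68749189-68749488 on the minus strand for Arrdc4. Capitals mark CCAAT on either strand and CACGTG.
Txnip: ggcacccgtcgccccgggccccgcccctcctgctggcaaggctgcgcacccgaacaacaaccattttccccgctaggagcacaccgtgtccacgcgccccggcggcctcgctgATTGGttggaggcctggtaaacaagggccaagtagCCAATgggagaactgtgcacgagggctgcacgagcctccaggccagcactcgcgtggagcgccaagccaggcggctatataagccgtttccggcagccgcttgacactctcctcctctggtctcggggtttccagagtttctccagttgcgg
Arrdc4: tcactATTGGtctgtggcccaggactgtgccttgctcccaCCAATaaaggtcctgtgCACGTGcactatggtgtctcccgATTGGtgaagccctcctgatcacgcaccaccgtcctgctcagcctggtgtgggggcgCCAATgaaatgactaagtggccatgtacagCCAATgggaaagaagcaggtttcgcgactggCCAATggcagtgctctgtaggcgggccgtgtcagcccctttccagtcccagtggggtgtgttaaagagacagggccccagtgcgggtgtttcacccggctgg
Txnip held 2 CCAAT matches and no CACGTG in this window, and Arrdc4 held 6 CCAAT matches and 1 CACGTG. Only the exact letters CACGTG were searched, and other forms, such as the cacgag in the Txnip sequence, were not marked. Whether either promoter holds a carbohydrate response element was therefore not tested. Of 32851 RefSeq promoters of the same 300 bases, 37.4% held CCAAT at least once, 11.7% at least 2 times and 0.0791% at least 6 times, and 7.15% held CACGTG. These matches describe letters, not bound sites.

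Of the 19 lower genes with a gap of at least 1 (0.112% of all genes), some were on matrix lists. They were 2 of 35 tested collagens, 2 of 24 elastic fibre and microfibril genes and 1 of 34 laminins and integrins. For Col5a3, the p53 KO values were 5333, 3962 and 3069.7 normalized reads and the p53Mdm2 KO values 833 and 633. Col5a3, a chain of type V collagen, differed by −2.43 (SE 0.31), with a limma adjusted p of 0.587. Eln had 6802, 3239 and 6400.3 normalized reads in p53 KO against 1053 and 296 in p53Mdm2 KO. Eln, which encodes elastin, differed by −3.17 (SE 0.58). Lama3 stood at 215, 52.0 and 143 normalized reads in the p53 KO libraries and at 10.2 and 7.73 in the p53Mdm2 KO libraries. Lama3, a laminin chain of basement membranes, was close to unread in p53Mdm2 KO. Normalized reads of Mfap5 were 1439.7, 836 and 1325 in p53 KO and 349 and 354 in p53Mdm2 KO. Mfap5, a microfibril glycoprotein, had p53Mdm2 KO libraries that nearly coincided, with a difference of −1.68 (SE 0.33).

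At Col18a1, Thbs4 and Wisp2, p53 KO replicate 1 was far above the rest. Col18a1 was read at 5223, 838 and 1518 normalized reads in p53 KO and 336 and 283 in p53Mdm2 KO. Col18a1, the collagen that gives rise to endostatin, differed by −2.54 (SE 0.71), or −1.81 without that library. For Thbs4, the p53 KO values were 3545, 29.7 and 87.4 normalized reads and the p53Mdm2 KO values 4.64 and 2.58. Thbs4, a thrombospondin, was under 5 normalized reads in both p53Mdm2 KO libraries and very high in p53 KO replicate 1. Its difference was −3.85 (SE 1.70), with an unadjusted limma p of 0.061. Wisp2 had 13971, 2932 and 4955 normalized reads in p53 KO against 1286 and 1118 in p53Mdm2 KO. Wisp2, a secreted CCN-family protein, differed by −2.28 (SE 0.64), or −1.65 without that library. Svep1, a large matrix protein, lay just outside a gap of 1 and Hddc3 just inside, at 1.01.

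Across the collagens, 9 of 35 tested members were separated lower (25.7% beside 9.2%) and 2 higher (5.71%), with a median log2 difference of −0.23 beside −0.01 over all genes. Without p53 KO replicate 1, 17 of 35 were lower (48.6%) beside 18.5% of all genes; the median turned to 0.14 without p53 KO replicate 3 and to 0.05 without p53Mdm2 KO replicate 2. Of 24 elastic fibre and microfibril genes, 6 were lower (25% beside 9.2%), among them Fbn2, Loxl1 and Lox, and 2 were higher. The lower count was 14 without p53Mdm2 KO replicate 1 (58.3% beside 25.3%) and 9 without p53 KO replicate 1 (37.5% beside 18.5%). Efemp1 stood at 446, 8609 and 9099 normalized reads in the p53 KO libraries and at 22154 and 18077 in the p53Mdm2 KO libraries. Efemp1, a fibulin, was one of the higher ones, with p53 KO replicate 1 far below the rest. Among 43 matrix proteases and their inhibitors 3 were lower (6.98% beside 9.2%) and none was higher; 19 were lower without p53Mdm2 KO replicate 1 (44.2% beside 25.3%).

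Normalized reads of Synm were 571, 505 and 427 in p53 KO and 108 and 108 in p53Mdm2 KO. Synm, an intermediate filament protein of muscle, differed by −2.02 (SE 0.25) with a limma adjusted p of 0.587, and its C462A values were 92.2 and 65.3. Myl9 was read at 19666, 17741 and 24885 normalized reads in p53 KO and 8611 and 12821 in p53Mdm2 KO. Myl9, the smooth muscle myosin light chain, had a gap of 0.47, and Mylk, the kinase that phosphorylates it, 0.45. Of 22 tested smooth muscle and contractile genes, 8 were separated lower (36.4% beside 9.2% of all genes), none higher and 14 overlapped; 2 had an unadjusted limma p under 0.05, both lower (1.49% of all genes). Without p53 KO replicate 1 the lower count was 15 (68.2%) beside 18.5% of all genes. For Acta2, the p53 KO values were 76654, 161912 and 198273 normalized reads and the p53Mdm2 KO values 90706 and 112617. Acta2, smooth muscle actin and the best known marker of the group, overlapped. Summed reads of fibroblast markers were 1133090 to 2248510 in p53 KO and 1514610 and 960682 in p53Mdm2 KO. Col1a1, Col1a2 and Col3a1 are on both the fibroblast and the collagen list, so these sums are not independent of the collagen values. The part of fibroblast markers in the matrix and contractile values was not tested.

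The remaining lower genes with wide gaps included Gbp1, an interferon-induced GTPase with near-identical family members. Gbp1 had 127, 199.6 and 394 normalized reads in p53 KO against 11.1 and 2.58 in p53Mdm2 KO. The p53Mdm2 KO values rest on few reads, and the C462A values were 489 and 213. Agtr1a stood at 703, 110.5 and 147 normalized reads in the p53 KO libraries and at 36.2 and 12.9 in the p53Mdm2 KO libraries. Agtr1a, the type 1 angiotensin II receptor, differed by −2.63 (SE 0.76), or −1.86 without p53 KO replicate 1. Serpina3n, a secreted protease inhibitor, had a gap of 1.20 and Ccdc141 of 1.13. An unnamed cDNA clone was also lower, with a gap of 1.03.

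**Figure D2:**
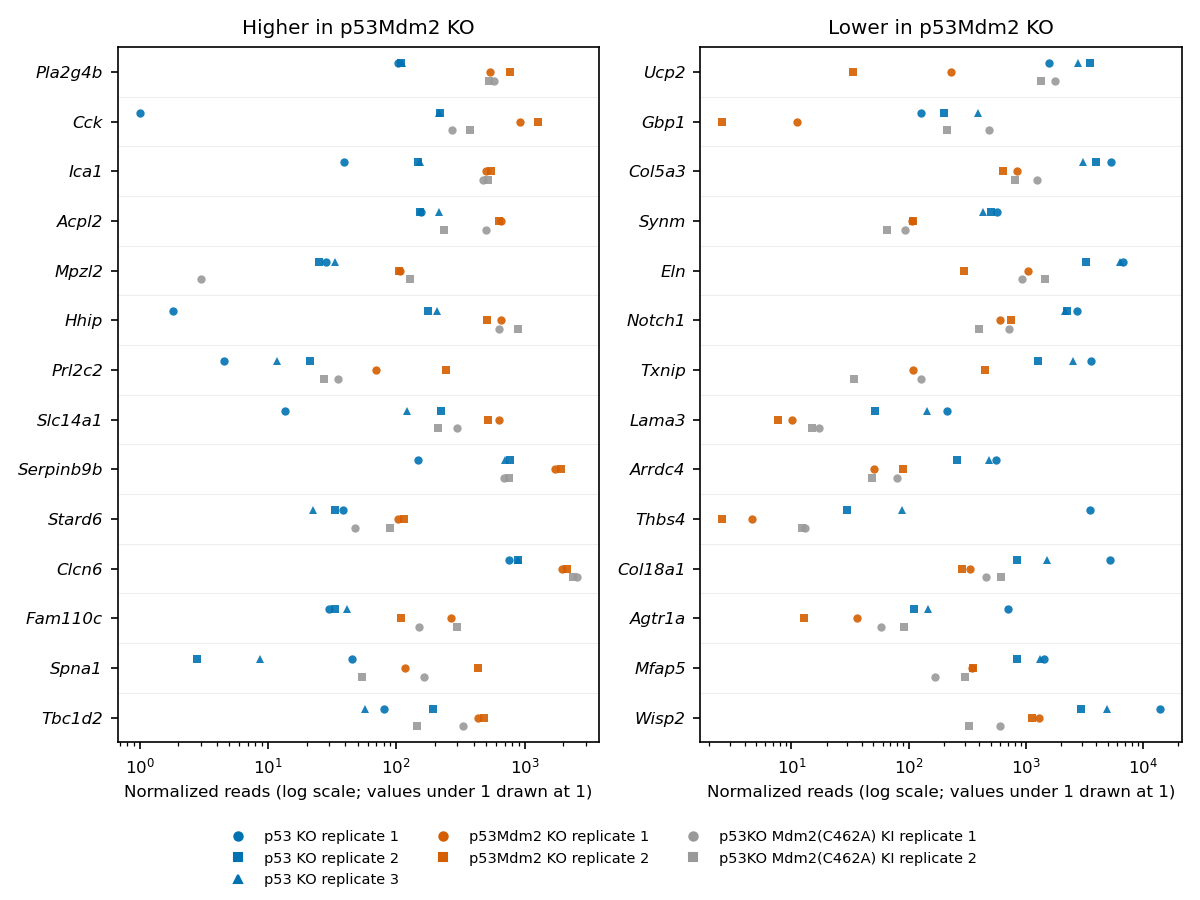
Normalized reads (log x axis, values under 1 drawn at 1) in each of the 7 libraries for the 14 higher and 14 lower named genes with the largest gaps; blue is p53 KO, orange p53Mdm2 KO and grey p53KO Mdm2(C462A) KI, with a marker shape for each replicate. The orange points lie beyond all blue points in every row, while single blue points, most often the circle of p53 KO replicate 1, lie far from the other blue points at Cck, Hhip and Thbs4.

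Notch signalling passes between neighbouring cells: ligands of the Jagged and Delta families bind Notch receptors, whose cleaved tail joins Rbpj and Mastermind proteins to switch on Hes and Hey genes. Of 27 Notch pathway genes in the table, 21 passed the filter on low reads. Of those, 11 were separated lower in p53Mdm2 KO (52.4%) beside 9.2% of all genes, and 2 were higher. The 11 include narrow gaps, of 0.004 at Hey2, 0.04 at Numbl and 0.08 at Maml1, and Heyl, whose separation rests on 1 read. With 1 library left out, 11 or 12 were lower, while the share of all genes was larger: 11 (52.4% beside 25.3%) without p53Mdm2 KO replicate 1, and 12 (57.1% beside 18.5%) without p53 KO replicate 1. At an unadjusted limma p under 0.05, 6 were lower (1.49% of all genes) and 1 higher (1.51%), and none passed adjustment. The median difference of the 21 was −0.23.

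Receptors were among them. Normalized reads of Notch1 were 2712, 2258 and 2172 in p53 KO and 598 and 749 in p53Mdm2 KO. Notch1 had the widest gap of the list, 1.51, and a difference of −1.79 (SE 0.28), with a limma adjusted p of 1.00. Notch3 was read at 892, 308 and 986 normalized reads in p53 KO and 212 and 74.7 in p53Mdm2 KO. Notch3 was lower with a gap of 0.50. For Notch2, the p53 KO values were 4304, 6443 and 6227 normalized reads and the p53Mdm2 KO values 5392 and 5132. The groups overlapped at Notch2, another receptor of the family. The ligand Jag1 was lower too. Jag1 had 3359, 4201 and 7019 normalized reads in p53 KO against 1169 and 1925 in p53Mdm2 KO. Its difference was −1.61 (SE 0.41), whereas Jag2 and the atypical ligands Dlk1 and Dlk2 overlapped.

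The target genes that separated were lower, while nuclear partners were separated in both directions. Hey1 stood at 86.3, 118 and 291 normalized reads in the p53 KO libraries and at 26.0 and 33.5 in the p53Mdm2 KO libraries. Hey1, a transcriptional repressor induced by Notch, differed by −1.79 (SE 0.54). Normalized reads of Nrarp were 51.8, 36.2 and 73.3 in p53 KO and 12.1 and 14.2 in p53Mdm2 KO. Nrarp, a target that damps Notch signalling, differed by −1.24 (SE 0.33). Hes1 was read at 1899, 1759 and 1969.5 normalized reads in p53 KO and 1576 and 1499 in p53Mdm2 KO. Hes1, the classical target, had a gap of only 0.16. Heyl was at 0 in both p53Mdm2 KO libraries and at 0.909, 26.0 and 178 in the p53 KO libraries, so its separation rests on 1 read in p53 KO replicate 1. For Rbpj, the p53 KO values were 4395, 8555 and 6264 normalized reads and the p53Mdm2 KO values 9248 and 11593. Rbpj, the DNA-binding partner of the Notch tail, was higher, as was Maml3, while Maml1 and Maml2, the other Mastermind genes of the list, were lower. The C462A libraries stood at 719 and 396 at Notch1, 1076 and 1912 at Jag1 and 19.0 and 56.4 at Hey1.

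**Figure D3:**
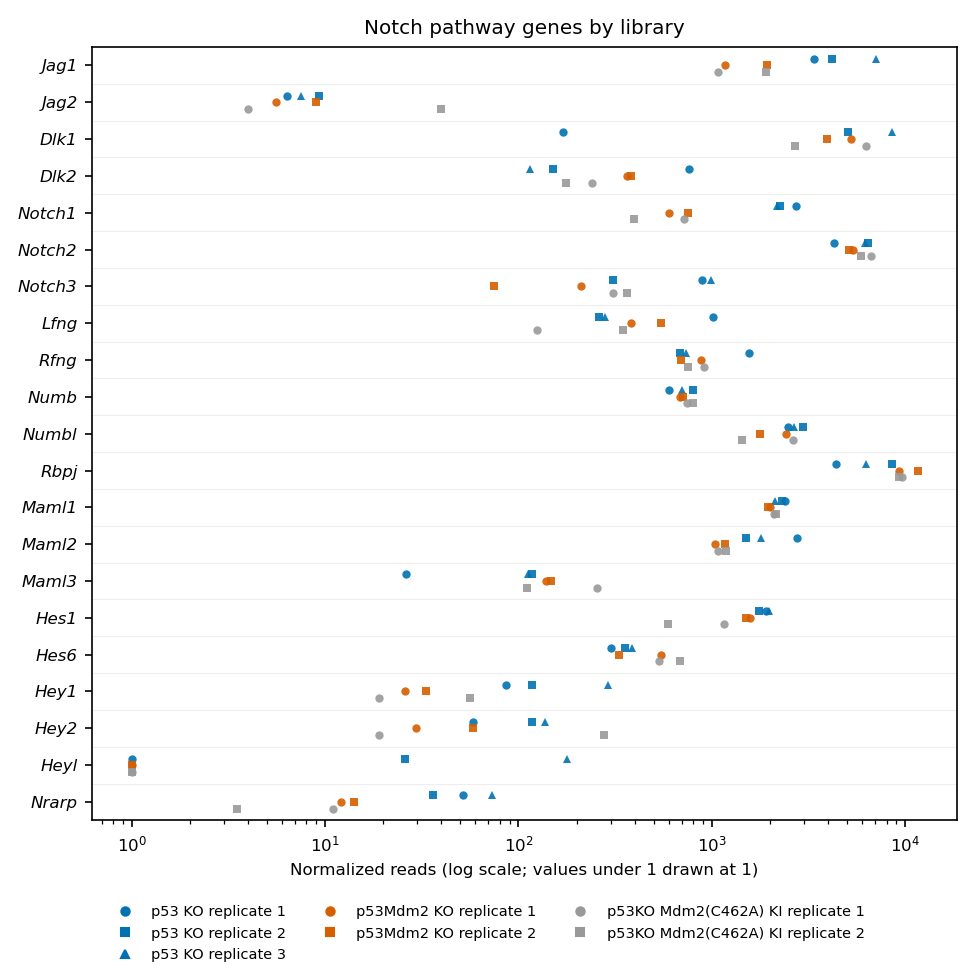
Normalized reads (log x axis, values under 1 drawn at 1) of the 21 tested Notch pathway genes in each library, with blue for p53 KO, orange for p53Mdm2 KO and grey for p53KO Mdm2(C462A) KI. By value 11 genes are separated lower, with orange points most clearly left of all blue points at Notch1, Hey1, Nrarp and Jag1. Orange points lie right of all blue points at Rbpj and Maml3. At Heyl values under 1 coincide in the plot, and at Hey2 the nearest orange and blue values are 57.9 and 58.2.

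Of 44 Wnt pathway genes, 5 were lower (11.4% beside 9.2%): the R-spondins Rspo3 and Rspo2, the receptor Fzd4, and the transcription factors Tcf7l1 and Tcf7l2. Rspo3 had 4327, 1013 and 1279 normalized reads in p53 KO against 543 and 295 in p53Mdm2 KO. Rspo2 stood at 8743, 1637 and 2617 normalized reads in the p53 KO libraries and at 618 and 1098 in the p53Mdm2 KO libraries. At all 5 the highest p53 KO library was replicate 1; without it 15 of 44 were lower (34.1%) beside 18.5% of all genes.

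Among the pathway lists, leaving aside cell type markers, hypoxia and glycolysis genes had the largest share of members separated higher. Of 38, 14 were higher (36.8%) beside 8.99% of all genes and none was lower, with a median difference of 0.49. Normalized reads of Bnip3 were 622, 595 and 605 in p53 KO and 2350.2 and 816 in p53Mdm2 KO. Bnip3, a mitophagy receptor induced in hypoxia, had p53 KO libraries that nearly coincided. Pgk1 was read at 18312, 20362 and 15828 normalized reads in p53 KO and 30125 and 25405 in p53Mdm2 KO. Pgk1, the phosphoglycerate kinase of glycolysis, had a gap of 0.32. For Ankrd37, the p53 KO values were 9.09, 43.6 and 29.1 normalized reads and the p53Mdm2 KO values 148 and 63.1. Ankrd37, a gene induced in hypoxia, had the widest gap of the list, 0.40, and at Slc2a1, the glucose transporter GLUT1, the gap was 0.01. The count was 17 without p53 KO replicate 1 (44.7% beside 17.6%), 23 without p53 KO replicate 2 (60.5% beside 14.1%) and 32 without p53Mdm2 KO replicate 2 (84.2% beside 22%). Without p53Mdm2 KO replicate 1 it was 14 (36.8% beside 23.9%), with 2 lower and a median of 0.28. Of the p53Mdm2 KO libraries, replicate 1 lay farther from the p53 KO mean, with list levels of 0.77 and 0.28 in replicates 1 and 2.

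Mitosis genes showed the opposite direction. Of 40, 14 were separated lower (35.0%) beside 9.2% of all genes and none higher, with a median difference of −0.27. Pttg1 had 689.9, 749 and 886 normalized reads in p53 KO against 429.6 and 399 in p53Mdm2 KO. Pttg1, the securin that restrains separase until sister chromatids part, had the widest gap, 0.66. Plk1 stood at 3546, 3805 and 3625 normalized reads in the p53 KO libraries and at 2378 and 2853 in the p53Mdm2 KO libraries. Plk1, a mitotic kinase, had a gap of 0.31, and 8 of the 14 gaps were under 0.10. Without p53Mdm2 KO replicate 2 the count was 38 (95% beside 23.1%), and without p53 KO replicate 2 it was 21 (52.5% beside 14.9%). Without p53Mdm2 KO replicate 1, 15 were lower (37.5% beside 25.3%) and 7 higher (17.5% beside 23.9%), with a median of −0.08. Of 41 DNA replication genes, 5 were lower (12.2% beside 9.2%) and 1 higher (2.44% beside 8.99%). The lower count was 17 without p53Mdm2 KO replicate 2 (41.5% beside 23.1%) and 16 without p53 KO replicate 3 (39.0% beside 15.1%), and 9 were higher without p53 KO replicate 1 (22.0% beside 17.6%).

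At several lists the median and the separation differed. Interferon response genes had a median difference of −1.01, yet 1 of 47 was separated, Ifi44, which was lower (2.13% beside 9.2% of all genes). Gbp1, named above, was not on this list. The list level was 0.56 in p53Mdm2 KO replicate 1 and −2.25 in replicate 2. Without replicate 1 of p53Mdm2 KO, 43 of 47 were lower (91.5% beside 25.3% of all genes), and without replicate 2 of p53Mdm2 KO 12 were higher (25.5% beside 22%), 1 was lower and the median was 0.56. Cholesterol synthesis genes had a median of 0.68, with 25 of 26 above 0, but 2 were separated higher (7.69%), Ggps1 and Acat2; the level was 1.25 in p53Mdm2 KO replicate 1 and 0.02 in replicate 2. Without the latter library 25 were higher (96.2% beside 22%). Atf4 target and amino acid genes had 3 of 33 separated higher (9.09% beside 8.99%). That count was 20 without p53Mdm2 KO replicate 2 (60.6% beside 22%) and 13 without p53 KO replicate 2 (39.4% beside 14.1%), and without p53Mdm2 KO replicate 1 the median turned from 0.33 to −0.08.

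**Figure D4:**
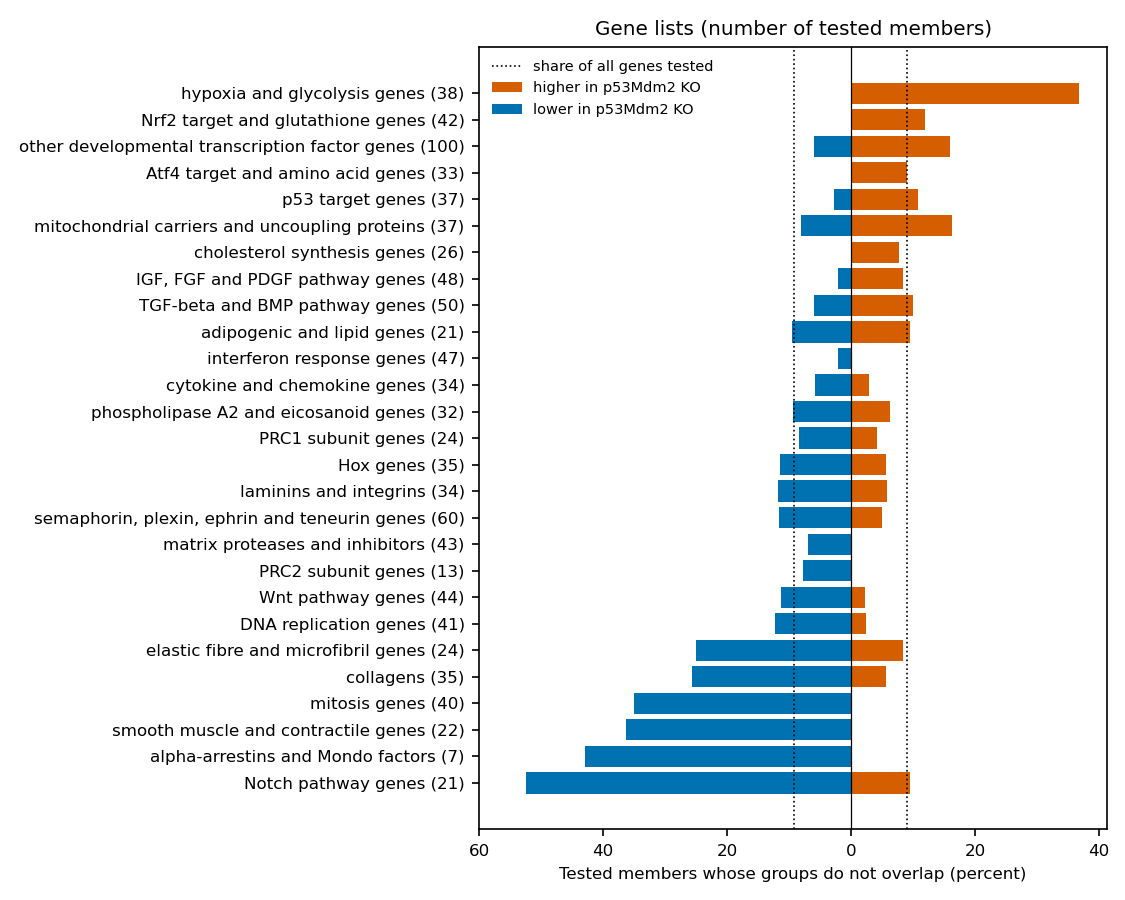
Bars give the percent of tested members of each gene list (number tested in brackets) whose groups do not overlap, to the right where p53Mdm2 KO was higher and to the left where it was lower; dotted lines mark the share of all 16900 genes. Hypoxia and glycolysis genes reach 36.8% to the right, and Notch pathway genes 52.4% to the left.

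**Figure D5:**
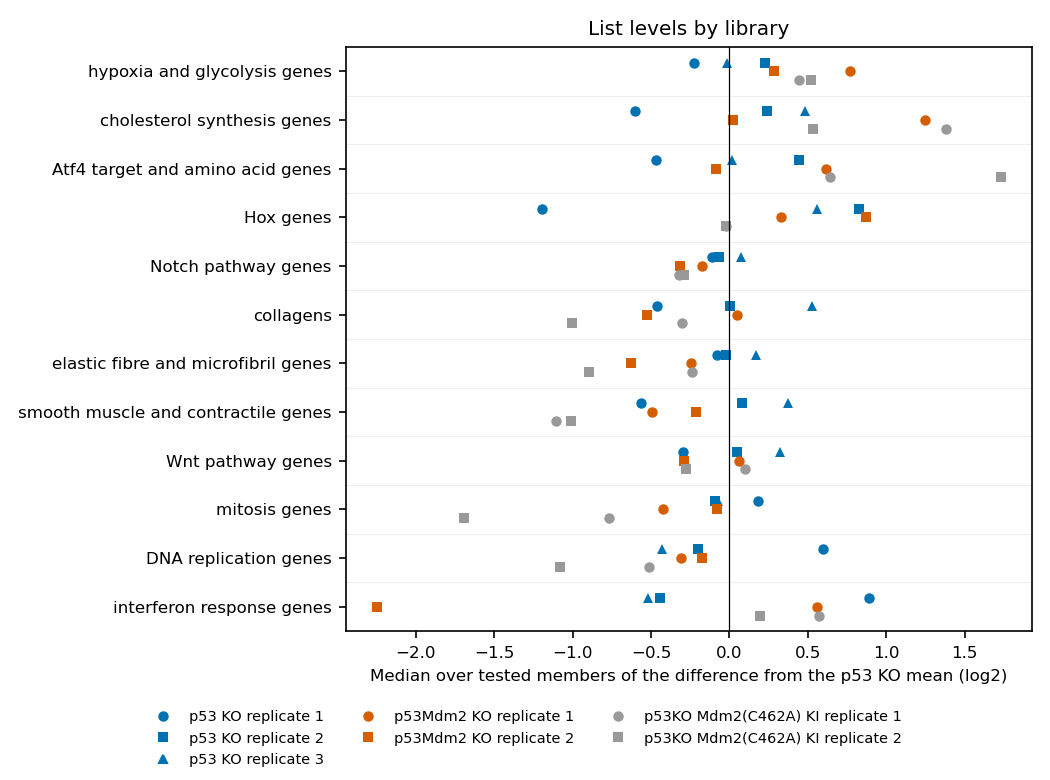
Each point is 1 library, placed on the x axis at the median, over tested members of a list, of the log2 difference from the p53 KO mean; blue is p53 KO, orange p53Mdm2 KO and grey p53KO Mdm2(C462A) KI. The orange points lie far apart for interferon response genes, at 0.56 and −2.25, and both lie right of the blue points for hypoxia and glycolysis genes.

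Of 37 p53 target genes, 4 were higher (10.8% beside 8.99%) and 1 lower (2.70% beside 9.2%), with a median difference of −0.003. Normalized reads of Phlda3 were 2009.6, 1656 and 1827 in p53 KO and 1018 and 1133 in p53Mdm2 KO. The lower one, Phlda3, encodes an inhibitor of Akt signalling. Among 13 genes of Polycomb repressive complex 2, which methylates histone H3, 1 was separated lower (7.69% beside 9.2%), Eed, with a gap of 0.07. Without p53Mdm2 KO replicate 2, 7 were lower (53.8% beside 23.1%), and without p53Mdm2 KO replicate 1, 5 were higher (38.5% beside 23.9%). Among 24 genes of Polycomb repressive complex 1, which ubiquitinates histone H2A, Pcgf5 was higher, and Cbx6 and Kdm2b were lower (8.33% beside 9.2%); 9 were lower without p53Mdm2 KO replicate 2 (37.5% beside 23.1%).

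Developmental transcription factors, many of which are Polycomb targets, were separated in both directions. Of 156 such genes in the table other than Hox genes, 100 passed the filter on low reads and 56 did not, 8 of them with no read in any library. Among the 100, 16 were higher (16.0% beside 8.99%) and 6 lower (6.00% beside 9.2%), with a median difference of −0.05. Tbx20 and Foxf2 had the widest gaps among the higher ones, 0.98 and 0.86. At 14 of the 16, p53 KO replicate 1 was the lowest p53 KO library; without it 24 were higher (24.0% beside 17.6%) and 17 lower (17.0% beside 18.5%). Of 35 Hox genes, which set position along the body axis and limb, 2 were higher (5.71% beside 8.99%) and 4 lower (11.4% beside 9.2%). Without p53 KO replicate 1, 11 were lower (31.4% beside 18.5%), and without p53Mdm2 KO replicate 1, 13 were higher (37.1% beside 23.9%).

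Among the 25 tested genes on each side of Mdm2 on chromosome 10, by the gene order of GRCm38.p6, 4 were separated higher and 3 lower, 14% beside 18.2% of all genes, and none had a gap of at least 1. Around Trp53 on chromosome 11, 2 of 50 were higher and 4 lower, 12%. The widest gaps there were 0.49 at Grip1 and 0.57 at Aloxe3.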

How the data were processed

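RNA from 7 fibroblast cultures was sequenced as single reads of 50 bases, per the labels' protocols. The submitters' processing notes list DESeq 1.14.0, Bowtie2 2.1.0, CASAVA 1.8.2 and the build mm9 with no roles, and how reads were assigned to genes or strands was not given in the sources used here. The authors deposited 29955 gene rows on a log2 scale whose form is that of a variance-stabilizing transformation, with 3.36 for a gene without reads. Inverting it gave normalized reads, and 1 step per library gave whole reads, with 100% of values within 0.05 of a whole number.

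Genes with a mean of at least 10 normalized reads over 7 libraries (16900) were tested with limma 3.58.1 in R 4.3.3, two-sided, on the deposited log2 values, with group means of all 7 libraries, a variance trend and Benjamini-Hochberg adjustment; differences are p53Mdm2 KO minus p53 KO. Genes are called separated where the groups' libraries do not overlap. Named genes were the 14 in each direction with the largest gap and 100 or more mean reads in whichever group was higher, up to 3 separated members of each list, and those just inside and outside a gap of 1; Jmjd7, Grik2, Serpina3n, Ccdc141 and the further pathway members named were chosen after their values were seen. The gene lists and the comparison were chosen with earlier results of these data known. The script was tested on simulated data. Alternatives covered scale, scaling, filter, variance model, samples, Y-linked level and replicate number.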

Additional observations from a re-analysis of the deposited data

How the results depend on the processing

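No gene passed an adjusted p of 0.05 in limma under any of the 18 alternatives run, with smallest adjusted p from 0.103 to 1.00. The count at an unadjusted p under 0.05, 507, was 921 with sample weights, 766 without a filter on low reads, and 345 to 784 with 1 library left out. Replicate numbers were shared by 2 pairs across the groups, whose deviations correlated at 0.04 and 0.20 over 16900 genes, so they were not taken to pair the libraries; a replicate block gave 442 genes at an unadjusted p under 0.05 and 0 adjusted. Genes with a gap of at least 1, 18 higher and 19 lower, numbered 40 and 34 on a log2(reads + 1) scale, which widens gaps at low reads. With 1 library left out they numbered 38 to 159 higher and 21 to 246 lower, and genes separated at any gap 2279 to 4040 higher and 2525 to 4278 lower; fewer libraries loosen these rules by construction. Under TMM scaling 18 of the 18 higher and 18 of the 19 lower genes kept a gap of at least 1, and under quantile normalization 16 and 17. The log2 difference of Mdm2 reversed to −0.025 with sample weights and ran from −0.25 to 0.31 with 1 library left out. Overlapping genes named beside the results also reversed: with sample weights Col1a2 was at −0.52, Dlk1 at −0.19 and Thy1 at −0.0054, and with 1 library left out Col1a2 ran from −0.94 to 2.71, Dlk1 from −0.53 to 2.21, Thy1 from −0.42 to 3.60, Jag2 from −0.17 to 0.095 and Notch2 from −0.27 to 0.023. Every other named gene that was followed under the alternatives kept its direction. Of 407 list medians recomputed, 364 moved by less than the spread. The list counts with libraries left out were added after seeing the data. At the shallowest depth, levels under 3.86 normalized reads cannot be told from 0.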
